A study of Homo sapiens with 12 samples.

Results

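The HSP70 chaperones and their larger HSP110 relatives were followed in HK-2 cells, an immortalised line labelled as human kidney proximal tubule epithelium, treated with Kbr, which is the labels' only name for the agent. The members were 10 named genes (HSPA1A, HSPA1B, HSPA2, HSPA4, HSPA4L, HSPA8, HSPA9, HSPA13, HSPA14 and HSPH1), and every probe set annotated to one of these symbols was taken. A probe set is a group of short oligonucleotides on the array that is read as a single value. The rule found all 10 genes, of 21357 gene symbols on the array, in 26 of its 54675 probe sets, and 25 of them were tested, having log2 values over 4 in 3 arrays or more. The other was 232200_at, annotated to HSPA9, which lay between 1.98 and 2.10 in every array. Of the 26 probe sets, 19 carried a single symbol and 7 carried several.

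Each of 4 groups held 3 arrays: Kbr for 24 h, control for 24 h, Kbr for 48 h and control for 48 h. Control cultures received vehicle, and the Kbr dose is given only as high, with no concentration in the sources used here. All cultures grew in the same mixed DMEM and F12 medium, with epidermal growth factor, hydrocortisone, insulin, transferrin, selenite, a glutamine supplement and the antibiotics penicillin and streptomycin, and were seeded 24 h before treatment. The labels call the replicates biological and do not say how the cultures were kept separate, so p-values measure the spread between these arrays. All groups come from 1 cell line in culture.

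HSP70 proteins bind short hydrophobic stretches of unfolded protein and release them in a cycle driven by ATP. J-domain proteins bring clients and start ATP cleavage, and nucleotide exchange factors, among them the HSP110 proteins, reset the cycle. HSPA1A and HSPA1B are the strongly stress-inducible cytosolic forms and HSPA8 is the constitutive one. Heat shock factor 1 switches on many of these genes by binding heat shock elements, which are inverted repeats of GAA and TTC units.

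Promoter sequence is shown for the members in whose upstream region that element could be looked for, because their transcripts moved by very different amounts. Of the 10 members, 9 matched the RefSeq promoter table (build GRCh38.p14), all but HSPA14, with 11 start sites in all. The 250 bases before each start were searched for GAANNTTC and TTCNNGAA, each of which reads the same on both strands, and for the longer GAA-NN-TTC-NN-GAA and TTC-NN-GAA-NN-TTC (written here with hyphens between units), which are each other's reverse complement and contain the shorter motifs. Capitals mark the GAA and TTC units of a match. HSPA1A (chr6:31815293-31815542, + strand) and HSPA1B (chr6:31827488-31827737, + strand) are shown because each held 1 match, HSPH1 (chr13:31162389-31162638, - strand) because it held none, and the elements of HSPA8 (chr11:123062346-123062374 and chr11:123062171-123062199, - strand) and HSPA4L (chr4:127782142-127782169, + strand) with the bases around them.
HSPA1A upstream of the start: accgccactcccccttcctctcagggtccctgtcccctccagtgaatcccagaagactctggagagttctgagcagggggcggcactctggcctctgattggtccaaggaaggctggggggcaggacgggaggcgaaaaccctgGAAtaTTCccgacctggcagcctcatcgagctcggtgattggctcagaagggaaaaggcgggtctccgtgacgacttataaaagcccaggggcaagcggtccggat
HSPA1B upstream of the start: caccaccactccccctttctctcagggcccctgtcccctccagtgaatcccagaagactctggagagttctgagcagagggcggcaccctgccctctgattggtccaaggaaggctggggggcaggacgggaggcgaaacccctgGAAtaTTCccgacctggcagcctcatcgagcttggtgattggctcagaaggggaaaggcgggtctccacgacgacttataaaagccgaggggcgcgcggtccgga
HSPH1 upstream of the start: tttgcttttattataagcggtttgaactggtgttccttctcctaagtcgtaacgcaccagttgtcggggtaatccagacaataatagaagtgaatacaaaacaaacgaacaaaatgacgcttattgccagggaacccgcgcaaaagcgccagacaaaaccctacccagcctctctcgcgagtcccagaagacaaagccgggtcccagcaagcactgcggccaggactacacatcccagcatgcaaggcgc
HSPA8 far element: gcgagcttGAAagTTCcaGAAcgctgcgg
HSPA8 near element: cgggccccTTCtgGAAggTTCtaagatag
HSPA4L element: ttccagatctTTCtcGAAcccgcagctt

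The HSPA1A match lay 106 to 99 bases before the start and the HSPA1B match 105 to 98 bases before it. Both genes shared it within upstream regions that were identical in 235 of 251 aligned columns (93.6%). HSPA8 held 2 of the longer elements, 230 to 218 and 55 to 43 bases before its start. HSPA4L held its match before 1 of its 3 annotated starts. No match was found in the windows of HSPH1, HSPA2, HSPA4, HSPA9 and HSPA13, which says only that these letters are not there. Over 35116 promoter windows of the same length, 11.6% held a shorter motif and 0.441% (155 windows) a longer one.

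Values are log2 GCRMA summaries as deposited. A probe set is called higher or lower when the Benjamini-Hochberg adjusted p over all 22273 tested probe sets, from limma with all 12 arrays, is under 0.05. Probe sets of the same gene are read from the same RNA samples, may match different transcripts, and are not replicates of each other. SE is limma's moderated standard error, and SD is the spread over 3 arrays. In RNA from a whole culture, a change in every cell and a change in the number of cells that carry the transcript cannot be told apart.

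At 24 h Kbr cultures had more RNA of nearly the whole family. Of the 25 tested probe sets 20 were higher, 0 were lower and 5 were not called, with a median log2 change of 0.75, against -0.01 over all tested probe sets. At an unadjusted limma p under 0.05, 22 members were higher and 0 lower, beside 8603 of all 22273 tested probe sets in either direction. Among all 22273 tested probe sets 25.6% were called (11.2% higher and 14.4% lower), which is 5693 calls (9262 with the replicate number as a block). With that block 21 members were higher and 0 lower, beside 4115 higher and 5147 lower of all tested probe sets. Every Kbr array lay above every control array in 23 members and below in 1, HSPA2, against 47.4% of all probe sets that did not overlap in either direction (23.5% higher and 23.9% lower).

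At 48 h the family was still mostly higher, but it had spread apart. Here 18 of 25 probe sets were higher, 2 were lower and 5 were not called, with a median of 0.85 against 0.00 over all tested probe sets. Of all tested probe sets 54.5% were called (26.8% higher and 27.7% lower), so that the members' count stands against a wide background. All Kbr arrays were above all controls in 19 members and below them in 2, against 59.5% of all probe sets in either direction (29.7% above and 29.9% below). The 2 lower ones were 1 probe set of HSPA4 and 1 of HSPA4L. Members higher at both times numbered 17, with 3 at 24 h alone and 1 at 48 h alone. With HSPA1A and HSPA1B taken as 1 entry, 8 of 9 gene entries had a higher probe set at 24 h and 8 at 48 h, and HSPA2 had none at either time.

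**Figure D1:**
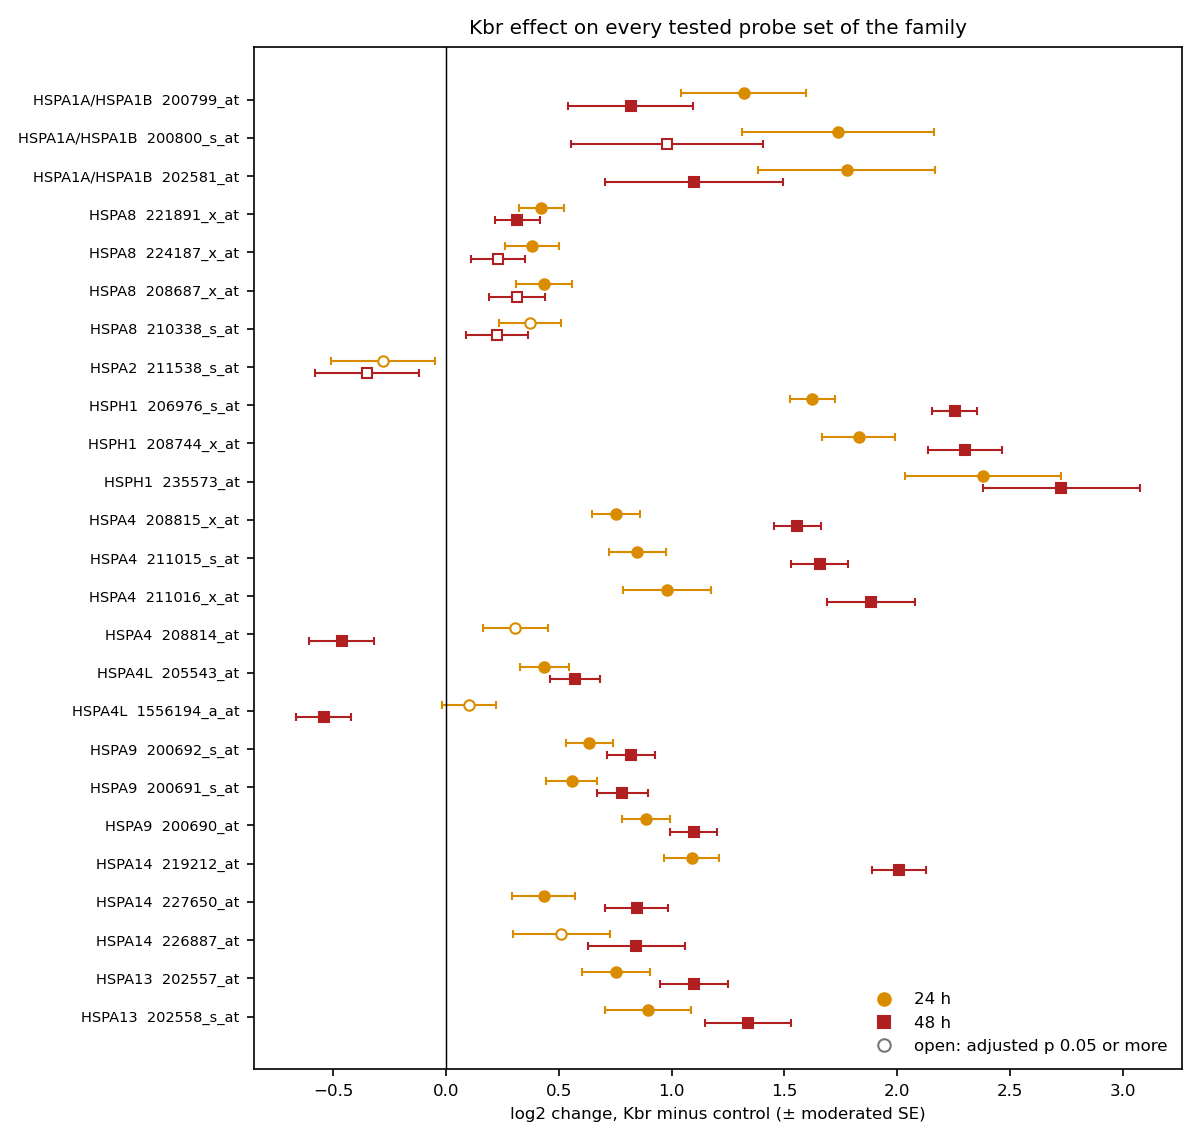
Kbr minus control on the log2 scale (x axis, bars ± moderated SE) for each of the 25 tested probe sets (y axis), with circles at 24 h and squares at 48 h and open symbols where the adjusted p was 0.05 or more. HSPH1 lies farthest to the right at both times, up to 2.73, and 1 HSPA4 and 1 HSPA4L probe set cross to the left at 48 h.

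HSPH1, the inducible HSP110 that resets HSP70 and holds unfolded clients, rose in all 3 probe sets at both times, and its probe set 235573_at gave the largest change of any member. Its brightest probe set, 206976_s_at, read 11.09, 11.16 and 11.24 in the 24 h control arrays and 12.77, 12.86 and 12.72 in the Kbr arrays. In the 48 h arrays it read 10.93, 10.78 and 11.05 without Kbr and 13.22, 13.09 and 13.23 with it. The groups are narrow and far apart at both times. The log2 change was 1.62 at 24 h (SE 0.10, limma adjusted p = 1.29e-05) and 2.26 at 48 h (SE 0.10, adjusted p = 3.67e-07), or 3.08-fold and 4.78-fold. The other HSPH1 probe sets moved alike, 208744_x_at by 1.83 and 2.30 and 235573_at by 2.38 and 2.73. The last of these ranked 10 from the top among the changes of all tested probe sets at 24 h and 52 at 48 h. Its control arrays were dim and scattered, from 4.86 to 6.51 at 48 h, while the Kbr arrays lay between 8.26 and 8.39.

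HSPA4, the constitutive HSP110 also known as APG2, rose in 3 of its 4 probe sets at both times. Probe set 208815_x_at read 12.48, 12.47 and 12.61 in control and 13.40, 13.24 and 13.17 in Kbr cultures at 24 h. At 48 h control arrays had gone to 11.93, 12.16 and 12.21, and Kbr arrays to 13.68, 13.66 and 13.62. Kbr and control arrays did not overlap at either time. The log2 changes were 0.75 (SE 0.10, limma adjusted p = 0.00081) and 1.56 (SE 0.10, adjusted p = 2.04e-06), or 1.69-fold and 2.94-fold. Probe sets 211015_s_at (0.85 and 1.66) and 211016_x_at (0.98 and 1.88) were called at both times as well.

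The fourth HSPA4 probe set, 208814_at, went the other way at 48 h. It was dim, at 5.55 to 5.58 in all 6 control arrays. Kbr arrays read 5.98, 5.95 and 5.69 at 24 h, all above control, and 5.02, 4.85 and 5.46 at 48 h, all below. The changes were 0.31 at 24 h (SE 0.14, limma adjusted p = 0.142) and -0.46 at 48 h (SE 0.14, adjusted p = 0.0189). That 48 h call was lost on leaving out Kbr 48 h replicate 1 (-0.42, adjusted p = 0.0600) or replicate 2 (-0.33, adjusted p = 0.0798), and under quantile normalization (-0.29, adjusted p = 0.14). The files do not say which HSPA4 transcripts each probe set reads.

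HSPA4L, the HSP110 relative known as APG1 or OSP94 and first described as a protein induced by osmotic stress, had 2 probe sets that parted. Probe set 205543_at read 8.86, 9.11 and 8.92 in control and 9.48, 9.50 and 9.21 in Kbr cultures at 24 h. At 48 h it read 8.61, 8.69 and 8.76 against 9.26, 9.23 and 9.29. It was thus higher at both times, by 0.43 (SE 0.11, limma adjusted p = 0.0147) and 0.57 (SE 0.11, adjusted p = 0.00116). The smaller call, at 24 h, was lost on leaving out control 24 h replicate 1 (adjusted p = 0.0623) or Kbr 24 h replicate 1 (0.0558) or 2 (0.0588). Probe set 1556194_a_at instead overlapped at 24 h, with 8.38, 8.14 and 8.10 in control and 8.42, 8.33 and 8.16 in Kbr arrays. At 48 h it had fallen from 8.46, 8.50 and 8.36 in control to 8.09, 7.78 and 7.82 in Kbr arrays, a change of -0.54 (SE 0.12, adjusted p = 0.00315).

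**Figure D2:**
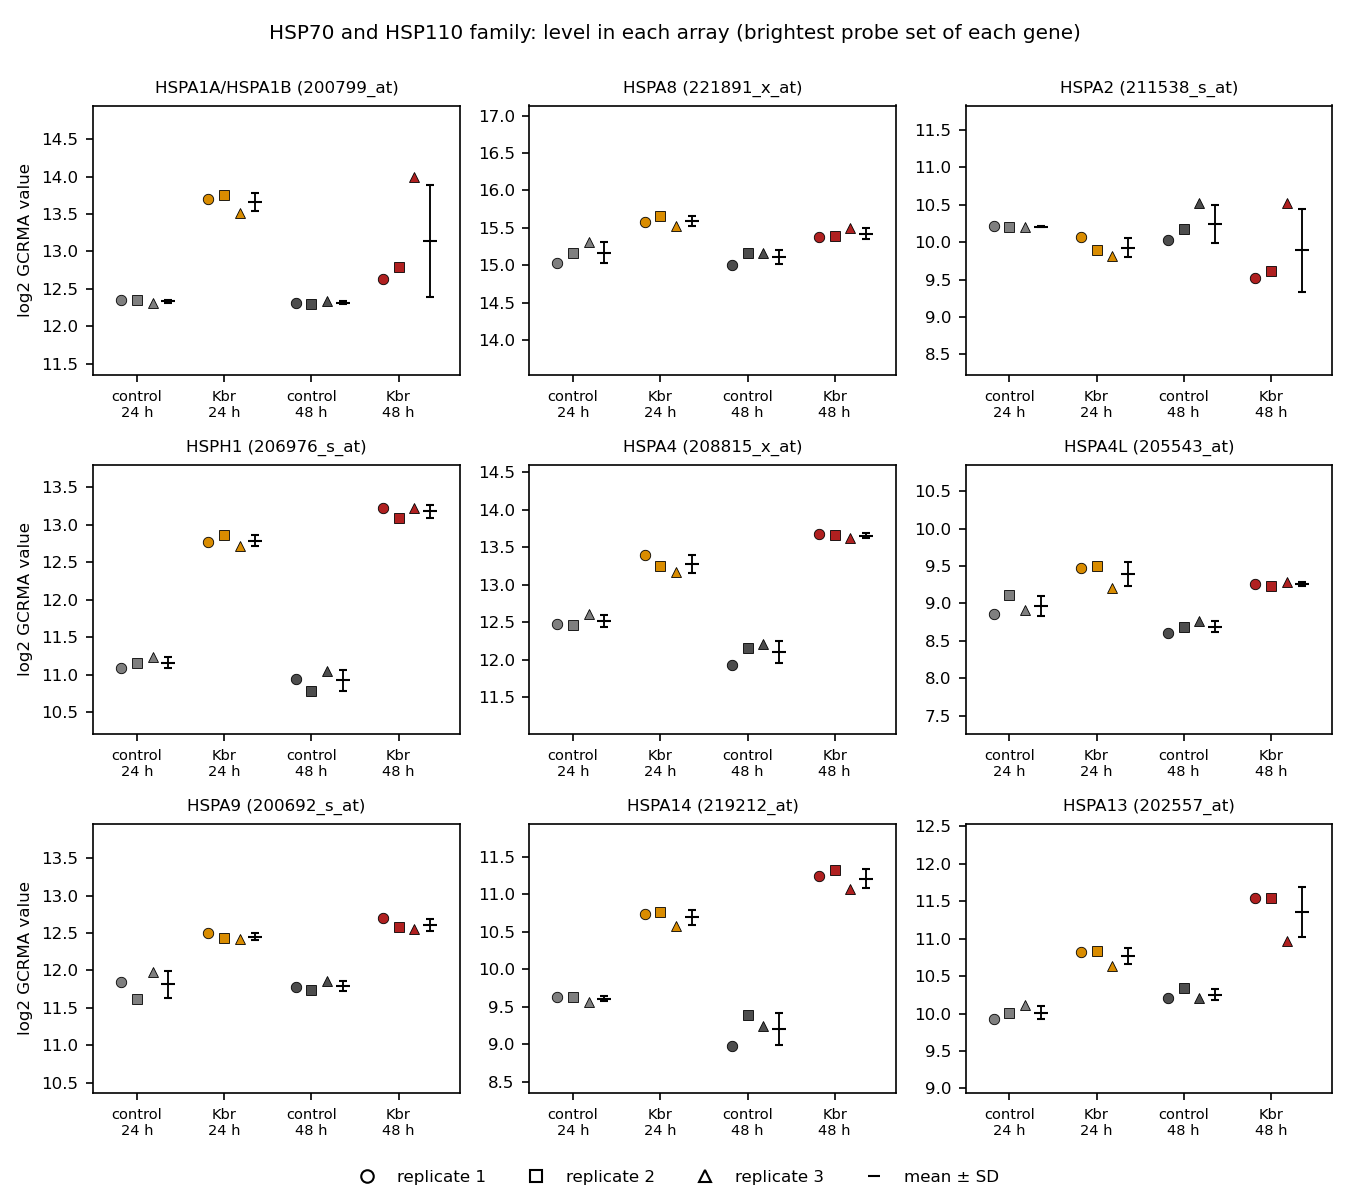
Log2 GCRMA value (y axis, each panel spanning the same number of log2 units) in each of the 12 arrays by group (x axis) for the brightest probe set of each gene, with the mean ± SD over 3 arrays beside the points. In every panel but that of HSPA2 all Kbr arrays lie above all control arrays at both times. In the HSPA1A/HSPA1B panel Kbr 48 h replicate 3, at 14.00, lies above replicates 1 and 2 at 12.63 and 12.79.

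HSPA1A and HSPA1B, the stress-inducible cytosolic pair, have nearly the same sequence, and their 3 probe sets are annotated to both genes, so that the genes cannot be separated here. Probe set 200800_s_at is annotated to the testis-type relative HSPA1L too. The brightest, 200799_at, read 12.35, 12.34 and 12.31 in control and 13.70, 13.75 and 13.52 in Kbr cultures at 24 h. Probe set 200800_s_at read 11.49, 11.33 and 11.66 against 13.33, 13.14 and 13.21, and 202581_at read 9.35, 9.09 and 9.34 against 11.37, 10.96 and 10.78. All of these Kbr arrays lay more than 1 log2 unit above every control array. The changes were 1.32 (SE 0.28, limma adjusted p = 0.00639), 1.74 (SE 0.43, adjusted p = 0.0132) and 1.78 (SE 0.39, adjusted p = 0.00836), in that order, which are 2.50-fold, 3.33-fold and 3.42-fold. The call of 200800_s_at at 24 h ended with no expression filter (adjusted p = 0.0594). Its 24 h SD was 0.17 in control and 0.10 in Kbr arrays, but the SE draws on the spread in all 4 groups. Without Kbr 48 h replicate 3 the 24 h changes had limma adjusted p = 4.76e-05, 0.000136 and 0.000729, in the same order.

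At 48 h the Kbr cultures no longer resembled each other in this pair. Probe set 200799_at read 12.63 and 12.79 in Kbr replicates 1 and 2 and 14.00 in replicate 3, with control arrays at 12.31, 12.30 and 12.34. For 200800_s_at the Kbr values were 11.84, 11.77 and 13.78 over control values of 11.66, 11.16 and 11.62, and for 202581_at they were 10.11, 9.54 and 11.45 over 9.56, 8.84 and 9.40. Replicate 3 was above the 24 h array of the same number, while replicates 1 and 2 had come most of the way back to control. It exceeded the mean of the other Kbr arrays by 1.29, 1.98 and 1.62.

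Over all 3 Kbr arrays the changes at 48 h were 0.82 (limma adjusted p = 0.0274), 0.98 (adjusted p = 0.0718, or 0.0428 with the replicate block) and 1.10 (adjusted p = 0.0349). Without Kbr 48 h replicate 3 they were 0.39 (adjusted p = 0.00881), 0.32 (adjusted p = 0.122) and 0.56 (adjusted p = 0.0889). The value of 200800_s_at was called without Kbr 48 h replicate 1 (1.29, adjusted p = 0.0357) or 2 (1.33, adjusted p = 0.0294). The calls of 200799_at and 202581_at also ended with no expression filter (adjusted p = 0.0956 and 0.124) and with only the groups compared in the fit (0.0966 and 0.102). That of 200799_at ended without control 48 h replicate 1 (adjusted p = 0.0630), 2 (0.0616) or 3 (0.0563), though its change stayed at 0.82, 0.81 and 0.83. That of 202581_at ended without control 48 h replicate 2 (0.89, adjusted p = 0.117) or 3 (1.16, adjusted p = 0.0579).

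Between 24 h and 48 h of Kbr the pair changed by -0.52, -0.76 and -0.67, none of them called (limma adjusted p = 0.246, 0.267 and 0.297). Without replicate 3 of the 48 h group all were lower at 48 h, by -0.95 (adjusted p = 0.000421), -1.42 (adjusted p = 0.000573) and -1.21 (adjusted p = 0.00896). The change of the Kbr effect from 24 h to 48 h was then -0.93, -1.42 and -1.22, each called (adjusted p = 0.00469, 0.00592 and 0.0492), against -0.50, -0.76 and -0.68 with all arrays, none called (adjusted p = 0.506, 0.515 and 0.53).

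**Figure D3:**
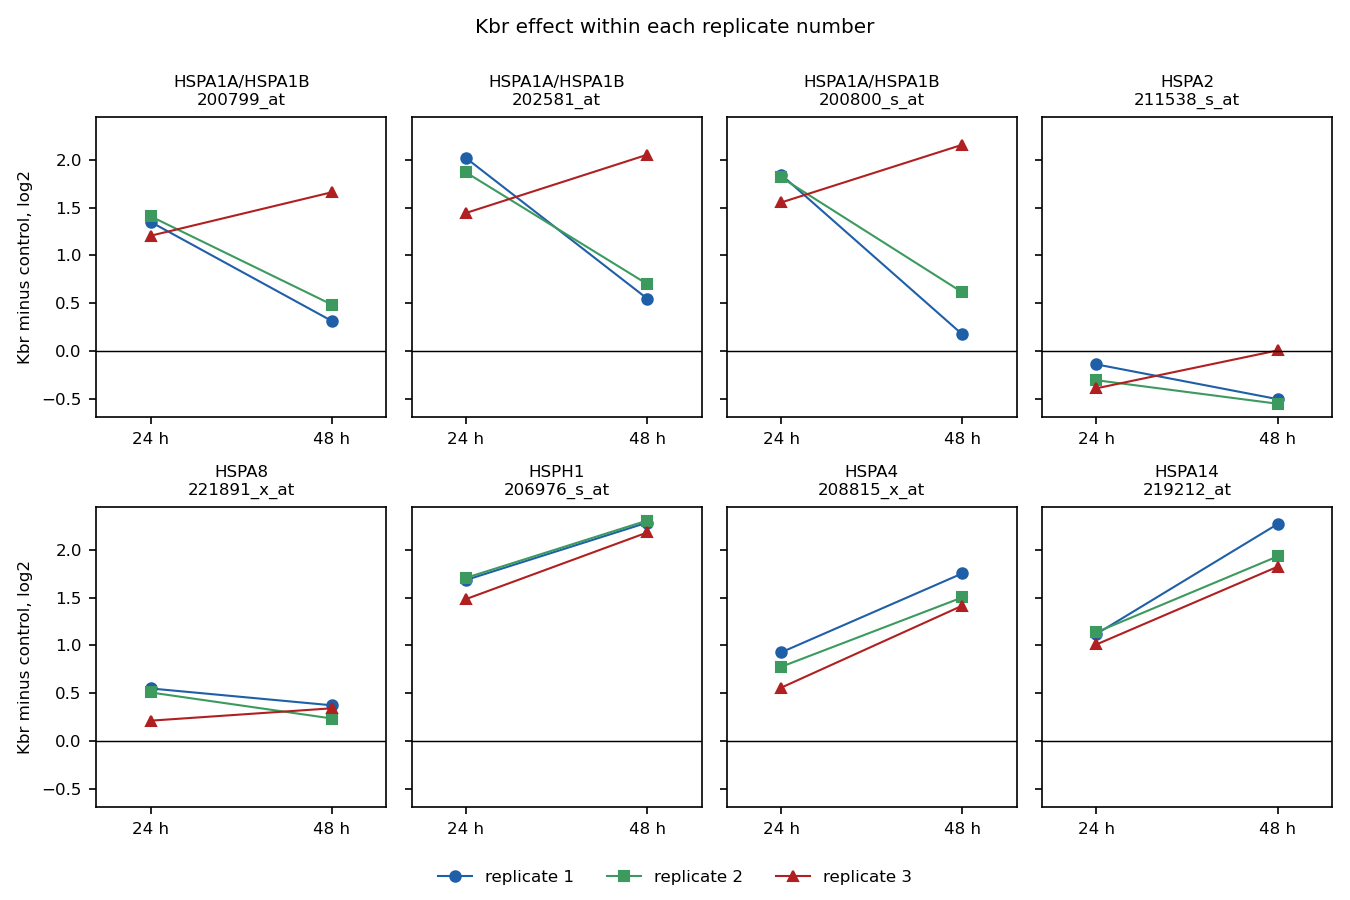
Kbr minus control of the same replicate number (y axis, log2) at 24 h and 48 h (x axis), with a line for each replicate number, for the 3 HSPA1A/HSPA1B probe sets and the brightest probe set each of HSPA2, HSPA8, HSPH1, HSPA4 and HSPA14. In the HSPA1A/HSPA1B panels replicate 3 goes up and replicates 1 and 2 go down, while all 3 lines of HSPH1 206976_s_at, HSPA4 208815_x_at and HSPA14 219212_at go up.

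The same Kbr 48 h array stood apart over the whole array. Measured as the root mean square distance to the group mean over all tested probe sets, it lay at 0.300 log2 units and the other 11 arrays at 0.174 to 0.241. Of the 25 tested members, 15 were above and 10 below the mean of the other 2 Kbr 48 h arrays there. HSPH1 206976_s_at differed by 0.08, HSPA4 208815_x_at by -0.05 and HSPA14 226887_at by -0.87. Without that array 16 members were higher and 3 lower at 48 h, and 53.7% of all tested probe sets were called (27.1% higher and 26.7% lower). What set it apart was not tested.

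HSPA8, the constitutive HSC70 that also uncoats clathrin vesicles, rose by little. Each of its 4 probe sets is annotated to the small nucleolar RNA genes SNORD14C and SNORD14D as well, which lie in its introns. Probe set 221891_x_at read 15.04, 15.16 and 15.31 in control and 15.58, 15.66 and 15.53 in Kbr cultures at 24 h, and 15.00, 15.16 and 15.16 against 15.38, 15.39 and 15.50 at 48 h. Kbr arrays lay above control arrays at both times by a narrow margin. The changes were 0.42 (SE 0.10, limma adjusted p = 0.0118) and 0.32 (SE 0.10, adjusted p = 0.0209), the first uncalled without control 24 h replicate 1 (adjusted p = 0.0527) and the second without Kbr 48 h replicate 3 (0.0555) or control 48 h replicate 1 (0.0719). Across the 4 probe sets the changes ran from 0.37 to 0.43 at 24 h, of which 3 were called, and from 0.23 to 0.32 at 48 h, of which 1 was called. The 48 h values turned on single Kbr arrays. Without replicate 3, 210338_s_at and 224187_x_at gave 0.11 each and 208687_x_at 0.20, none called, and without replicate 1 they gave 0.36, 0.34 and 0.41, all called (limma adjusted p = 0.0406, 0.0301 and 0.0232). With the replicate block 210338_s_at was called at 24 h (adjusted p = 0.0106, against 0.0721) and 208687_x_at at 48 h (0.0125, against 0.0528). The 24 h calls of 208687_x_at and 224187_x_at ended when single arrays were left out, with adjusted p up to 0.109 and 0.134, both without control 24 h replicate 1.

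HSPA2, a testis-enriched HSP70 with a single probe set, 211538_s_at, was the only member entry with no higher probe set. It read 10.21, 10.21 and 10.20 in control and 10.07, 9.90 and 9.81 in Kbr cultures at 24 h. At 48 h control arrays were at 10.03, 10.17 and 10.52 and Kbr arrays at 9.53, 9.62 and 10.52. The groups separated at 24 h and overlapped at 48 h through replicate 3. The changes were -0.28 (SE 0.23, limma adjusted p = 0.4) and -0.35 (SE 0.23, adjusted p = 0.22), and without Kbr 48 h replicate 3 the 48 h value was -0.67 (adjusted p = 0.00319).

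HSPA9, the mitochondrial HSP70 known as mortalin, pulls imported proteins through the inner membrane and folds them. Probe set 200690_at read 8.07, 8.24 and 8.30 in control and 9.15, 9.07 and 9.05 in Kbr cultures at 24 h, and 8.11, 8.20 and 8.31 against 9.40, 9.36 and 9.16 at 48 h. Its groups were far apart at both times and changed little between them. The rise was 0.89 (SE 0.11, limma adjusted p = 0.000384) at 24 h and 1.10 (SE 0.11, adjusted p = 1.36e-05) at 48 h. The brighter 200691_s_at and 200692_s_at rose by 0.56 and 0.64 at 24 h and by 0.78 and 0.82 at 48 h.

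HSPA14, which works with the J-domain protein DNAJC2 at the ribosome on chains as they are made, rose further with time in its brightest probe set. Probe set 219212_at read 9.62, 9.63 and 9.57 in control and 10.74, 10.76 and 10.58 in Kbr cultures at 24 h. At 48 h it read 8.97, 9.39 and 9.25 against 11.24, 11.32 and 11.07. All Kbr arrays stood clear of control. The changes were 1.09 (SE 0.12, limma adjusted p = 0.000286) and 2.01 (SE 0.12, adjusted p = 1.29e-06), or 2.13-fold and 4.02-fold. The dimmer 226887_at and 227650_at gave 0.51 (adjusted p = 0.106) and 0.43 (adjusted p = 0.0425) at 24 h and rose by 0.84 and 0.85 at 48 h. Of these, the 24 h call of 227650_at ended on leaving out any 1 of 9 arrays, with adjusted p up to 0.154 without control 24 h replicate 1, and on centring the arrays on their median (0.0605). Between the times the Kbr effect of 226887_at and 227650_at differed by 0.33 and 0.41, neither called (limma adjusted p = 0.584 and 0.25).

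HSPA13, a microsomal HSP70 that lacks the usual peptide-binding part, rose at both times in both probe sets. Probe set 202557_at read 9.93, 10.00 and 10.11 in control and 10.82, 10.84 and 10.64 in Kbr cultures at 24 h, and 10.21, 10.34 and 10.20 against 11.55, 11.55 and 10.97 at 48 h. Replicate 3 was again the odd one of the 48 h Kbr arrays, here the lowest. The rise was 0.75 (SE 0.15, limma adjusted p = 0.00502) and 1.10 (SE 0.15, adjusted p = 0.000131), and for 202558_s_at it was 0.90 and 1.34.

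By limma's test of the difference, the Kbr effect was larger at 48 h than at 24 h in 4 member probe sets and smaller in 0. Among all tested probe sets 4.27% were called (1.55% higher and 2.73% lower). At an unadjusted limma p under 0.05 the members' counts were 5 and 2, beside 4947 of all 22273 tested probe sets in either direction. The 4 called members were HSPA14 219212_at at 0.92 (SE 0.17, limma adjusted p = 0.0206), HSPA4 208815_x_at at 0.80 (SE 0.15, adjusted p = 0.0203) and 211015_s_at at 0.81 (SE 0.18, adjusted p = 0.0358), and HSPH1 206976_s_at at 0.63 (SE 0.14, adjusted p = 0.0365). With the replicate block 6 members were higher and 2 lower. Over all tested probe sets the block gave 1552 higher and 2047 lower, against 345 and 607 without it. The added member calls were HSPA4 211016_x_at (0.90, adjusted p = 0.00813) and HSPH1 208744_x_at (0.47, adjusted p = 0.0465), with HSPA4 208814_at (-0.77, adjusted p = 0.0380) and HSPA4L 1556194_a_at (-0.64, adjusted p = 0.0114) on the other side.

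These calls lie near the threshold, and leaving out 1 array ended many of them, among the members as over all tested probe sets. Leaving out control 24 h replicate 3 or Kbr 48 h replicate 2 left 0 members called by limma. At an unadjusted limma p under 0.05 each setting gave 7 members, beside 3831 and 4043 of all 22273 tested probe sets. The calls over all tested probe sets went from 952 to 224 and 290. The changes of the 4 probe sets were then 0.59 to 0.94, against 0.63 to 0.92 with all arrays. Leaving out Kbr 24 h replicate 2 left 1, and leaving out control 24 h replicate 2, control 48 h replicate 1 or 2, Kbr 24 h replicate 1 or 3 or Kbr 48 h replicate 1 left 2. Over all tested probe sets these settings left 274 to 483 calls. Without Kbr 48 h replicate 3 there were 9, of which 5 were higher and 4 lower, beside 5.89% and 5.07% of all tested probe sets. The lower ones then were the HSPA1A/HSPA1B probe sets and HSPA4 208814_at (-0.95, adjusted p = 0.00608).

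Control cultures were compared over time to show how the family moved without Kbr. In limma 0 members were called at 48 h against 24 h, against 1.78% of all tested probe sets (0.849% higher and 0.929% lower). At an unadjusted limma p under 0.05, 6 members were lower and 0 higher, beside 4199 of all 22273 tested probe sets in either direction. The largest values among the brighter probe sets were in HSPA4, at -0.42 for 208815_x_at, -0.46 for 211015_s_at and -0.52 for 211016_x_at, and in HSPA14 219212_at at -0.40. With the replicate block these 4 were called lower (adjusted p = 0.0262, 0.0326, 0.0146 and 0.0314). Over all tested probe sets the block gave 1519 higher and 2059 lower, against 189 and 207 without it. In HSPA4 208815_x_at and HSPA14 219212_at, then, the Kbr mean was higher and the control mean lower at 48 h than at 24 h.

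Between Kbr cultures at 48 h and 24 h, 4 members were higher and 1 lower, against 13.2% of all tested probe sets (5.5% higher and 7.66% lower). The higher ones were HSPA13 202557_at at 0.59 (SE 0.15, limma adjusted p = 0.0294), HSPA14 219212_at at 0.52 (SE 0.12, adjusted p = 0.0201), HSPH1 206976_s_at at 0.39 (SE 0.10, adjusted p = 0.0284) and HSPA4 208815_x_at at 0.38 (SE 0.10, adjusted p = 0.0371). Each of these calls ended on leaving out single arrays of the Kbr groups, with adjusted p up to 0.117, 0.0842, 0.0992 and 0.13. HSPA4 208814_at was lower, by -0.77 (SE 0.14, adjusted p = 0.00848). With the block 7 members were higher and 2 lower. Over all tested probe sets the block gave 2709 higher and 3559 lower, against 1224 and 1705 without it. The members added as higher were HSPA13 202558_s_at (0.48, adjusted p = 0.0239), HSPA4 211016_x_at (0.39, adjusted p = 0.0251) and HSPH1 208744_x_at (0.31, adjusted p = 0.0399). HSPA4L 1556194_a_at was added as lower (-0.41, adjusted p = 0.00852, against 0.0502). This comparison shares its arrays with those above.

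Relatives outside the list were called at 48 h and not at 24 h: of 3 tested, limma called 0 at 24 h (0 at an unadjusted p under 0.05), and 2 rose and 1 fell at 48 h. HSPA5, the endoplasmic reticulum HSP70 known as BiP, read 13.05, 12.92 and 13.40 in control and 13.86, 13.71 and 13.71 in Kbr arrays at 24 h (0.63, limma adjusted p = 0.137, or 0.0131 without Kbr 48 h replicate 3). At 48 h it read 13.20, 12.80 and 13.05 against 15.40, 15.09 and 13.99, a rise of 1.81 (adjusted p = 0.000409). HYOU1, the HSP110-type exchange factor of the same compartment, stood at -0.01 at 24 h (adjusted p = 0.99) and rose by 1.01 at 48 h (adjusted p = 0.0243), from 8.99, 8.85 and 9.00 to 10.76, 10.12 and 9.00. In both genes Kbr 48 h replicate 3 was the array nearest to control, the reverse of its place in HSPA1A and HSPA1B. The HYOU1 call was lost on leaving out 1 array, either Kbr 48 h replicate 1 or 2 (0.62 and 0.93, adjusted p = 0.0839 and 0.0726) or control 48 h replicate 1 or 2 (0.0525 and 0.0636). Without replicate 3 the 48 h values were 2.23 for HSPA5 and 1.49 for HYOU1. HSPA12A, a distant HSP70 relative, stood at 0.13 at 24 h and had fallen by 0.92 at 48 h (adjusted p = 6.92e-05). The difference between the times was called in HSPA12A (-1.06, adjusted p = 0.0124), and in HSPA5 and HYOU1 without Kbr 48 h replicate 3 (1.59 and 1.50, adjusted p = 0.00468 and 0.00818, against 0.129 and 0.235 with it). HSPA6, HSPA1L and HSPA12B stayed below the filter, with HSPA6, a strictly inducible HSP70, between 2.85 and 3.11 in all arrays.

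The partners of HSP70 were described from lists chosen with earlier results of these data known, with 1 probe set for each gene. Their counts stand beside the 25.6% of all tested probe sets called at 24 h (11.2% higher and 14.4% lower) and the 54.5% at 48 h (26.8% and 27.7%). Of the J-domain proteins that serve cytosolic HSP70, 12 were tested, and 7 rose and 0 fell at 24 h, and 8 rose and 0 fell at 48 h in limma (8 and 0 at each time at an unadjusted p under 0.05), with medians of 0.61 and 0.82. DNAJC2, the ribosomal partner of HSPA14, rose by 1.46 (limma adjusted p = 7.13e-05) and 2.05 (adjusted p = 1.22e-06). DNAJB4 rose by 1.22 and 1.96 and DNAJA1 by 1.16 and 1.45. The 4 that were called at neither time (DNAJB2, DNAJB14, DNAJC5 and GAK) had values between -0.13 and 0.22, and they are named after their values were seen.

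Of 10 exchange factors and linker co-chaperones, limma called 3 higher and 0 lower at 24 h and 5 higher and 1 lower at 48 h. Over both directions these shares lie near the 25.6% and 54.5% of all tested probe sets called at those times. Of all tested probe sets 11.2% and 26.8% were called higher. At 24 h the counts were 5 and 1 at an unadjusted p under 0.05. With the replicate block they were 6 and 2, beside 9262 of all 22273 tested probe sets called. At 48 h they were 4 and 1 without Kbr 48 h replicate 3. BAG3, which directs HSP70 clients to autophagy, rose by 1.58 (limma adjusted p = 0.000491) and 2.10 (adjusted p = 1.27e-05). BAG2, an inhibitor of the ubiquitin ligase STUB1, rose by 1.08 and 1.24. STIP1, the adaptor that hands clients from HSP70 to HSP90, rose by 0.90 and 1.34. The gene that fell at 48 h was STUB1, which tags HSP70 clients for the proteasome, at -0.62 (adjusted p = 0.00599), named after its value was seen.

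Partners of mitochondrial HSPA9 numbered 10, of which 4 rose and 1 fell at 24 h (7 and 1 with the block) and 9 rose and 1 fell at 48 h. GRPEL1, its exchange factor, rose by 0.95 (limma adjusted p = 0.00246) and 1.76 (adjusted p = 1.22e-05). HSPE1, the co-chaperonin of HSP60, rose by 0.76 at 24 h, as did TIMM44, which ties HSPA9 to the import channel, by 0.68. At 48 h DNLZ, which keeps HSPA9 soluble, rose by 1.26 and GRPEL2, the second exchange factor, by 1.09. The one that fell was DNAJC19, a J-domain protein of the import motor, at -0.41 (adjusted p = 0.0498) and -0.66 (adjusted p = 0.00204), named after its values were seen.

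Of 13 other targets of heat shock factors, 8 rose and 0 fell at 24 h in limma (also at an unadjusted p under 0.05), and 10 rose and 1 fell at 48 h (8 and 1 without Kbr 48 h replicate 3). ZFAND2A, the arsenite-inducible protein AIRAP that binds the proteasome, rose by 2.20 (limma adjusted p = 0.00015) and 3.32 (adjusted p = 1.67e-06). CHORDC1, an HSP90 co-chaperone, rose by 1.93 and 2.79, and FKBP4, an HSP90-bound immunophilin, by 1.19 and 1.25. CRYAB, a small heat shock protein, fell by 0.58 at 48 h (adjusted p = 0.0133) and is named after its value was seen. Of 4 tested genes for the factors themselves and their partners, limma called 0 higher at either time (0 at an unadjusted p under 0.05), with HSF1, the main stress-activated factor, at -0.20 (adjusted p = 0.386) and -0.08 (adjusted p = 0.687). HSF2BP, a binding partner of HSF2, fell by 0.71 at 24 h (adjusted p = 0.0126, rising to 0.0564 if control 24 h replicate 1 is left out) and stood at -0.43 at 48 h (adjusted p = 0.0516, or 0.0180 with the block). HSF1 is known to be controlled mainly at the level of its protein, which arrays do not read.

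**Figure D4:**
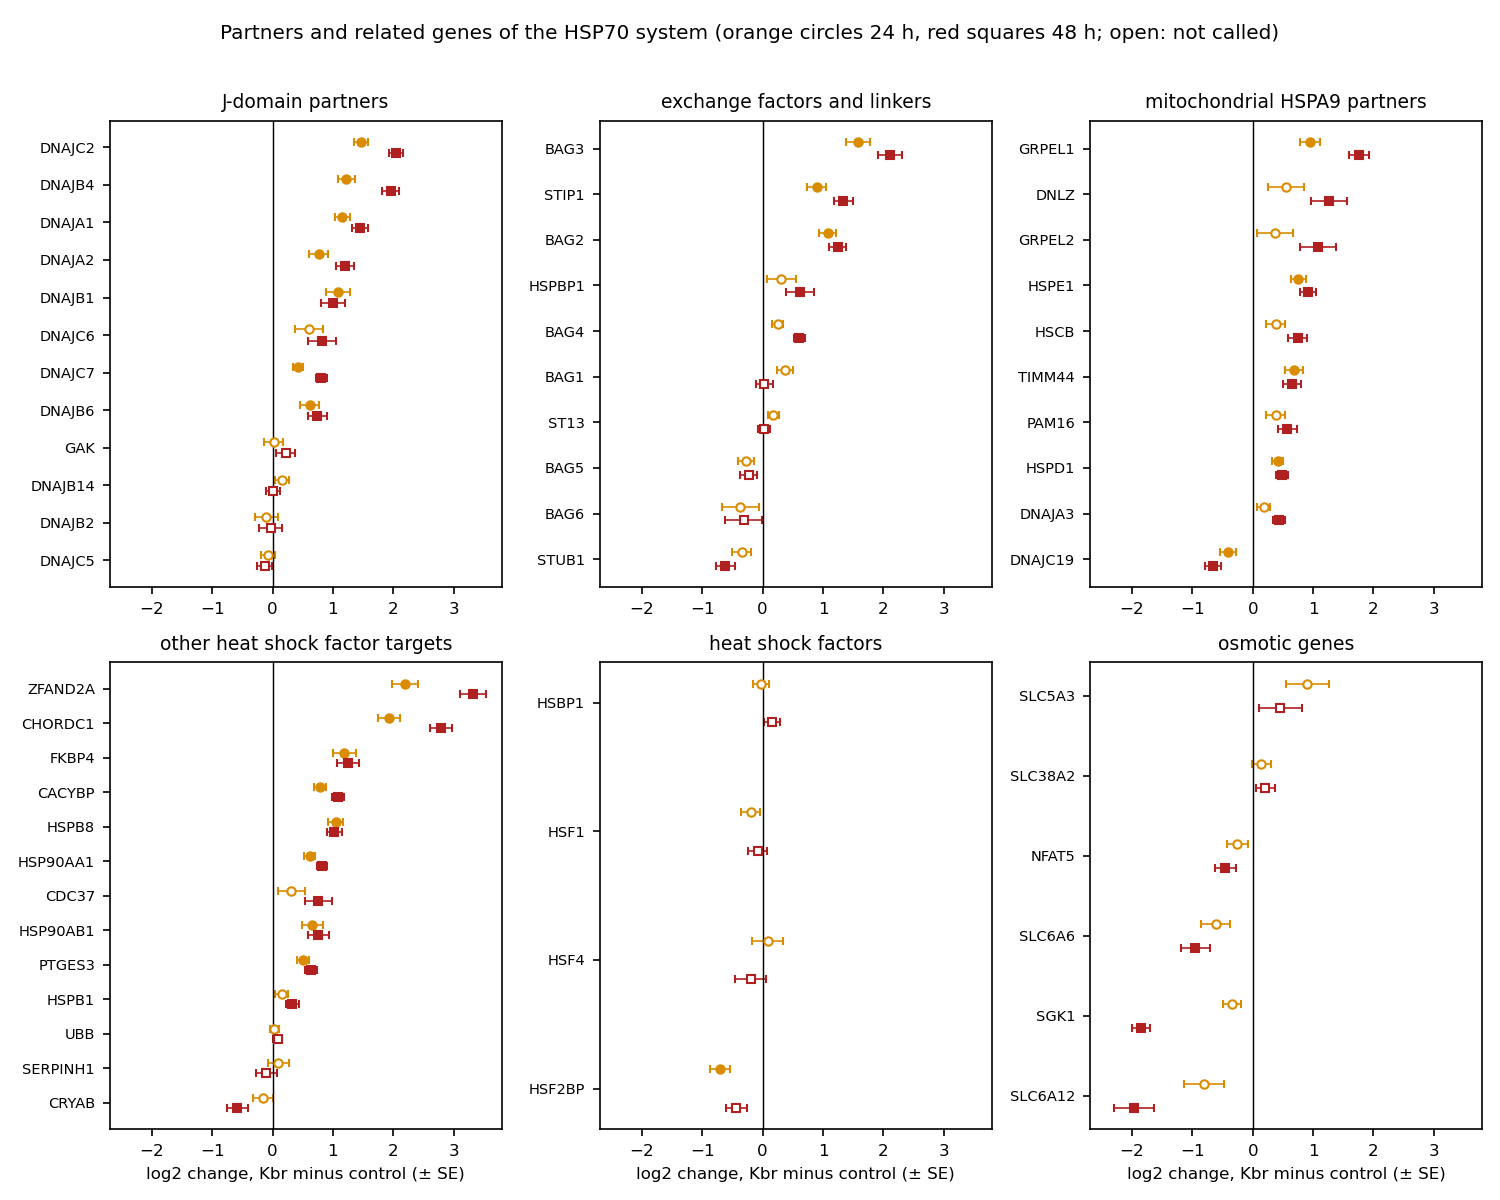
Kbr minus control on the log2 scale (x axis, bars ± SE) for the tested genes of 6 lists (y axis), with circles at 24 h, squares at 48 h and open symbols where not called. Most J-domain, mitochondrial and heat shock factor target genes lie to the right of 0 up to 3.32 for ZFAND2A, HSF1 lies near 0 (-0.20 and -0.08), and SLC6A12 and SGK1 lie farthest to the left at 48 h.

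Genes of the osmotic response were taken beside HSPA4L. Of 6 tested, 0 were called in limma at 24 h (1 higher and 3 lower at an unadjusted p under 0.05, and 1 and 1 called with the replicate block) and 0 rose and 4 fell at 48 h (1 and 3 without Kbr 48 h replicate 3). Of all tested probe sets 25.6% were called at 24 h, and 54.5% at 48 h, 27.7% lower. SLC6A12, the betaine transporter, fell by 1.97 at 48 h (adjusted p = 0.000506), SGK1, a kinase induced by glucocorticoids and cell shrinkage, by 1.85 (adjusted p = 5.91e-06) and SLC6A6, the taurine transporter, by 0.95 (adjusted p = 0.00643). At 24 h SLC6A12 gave -0.80 (adjusted p = 0.0978, but 0.0340 at -1.10 without control 24 h replicate 3 and 0.0302 without control 48 h replicate 3). SLC6A6 gave -0.61 (adjusted p = 0.0859, but 0.0403 with the block, and 0.0228 and 0.0489 without control 48 h replicate 1 or 3). SLC5A3, the inositol transporter, gave 0.91 at 24 h (adjusted p = 0.0872, or 0.00664 with the block, and 0.0115 without control 24 h replicate 2).

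Profiles most like those of 4 members were found by the root mean square difference of centred log2 values over the 12 arrays, among 10567 genes. Nearest to HSPH1 206976_s_at were SNRNP48 (0.12), DNAJC2 (0.19), TXNRD1 (0.19), ETS2 (0.22) and TRIM16 (0.22), where HSPH1 itself had an SD of 1.03 over the arrays. Nearest to HSPA1A/HSPA1B 200799_at was its J-domain partner DNAJB1 (0.24), followed by RGS2 (0.25), GCNT2 (0.28), GCNT3 (0.29) and TNFRSF10D (0.32), with an SD of 0.67 for the pair. DNAJB1 shared the high replicate 3 in Kbr cultures at 48 h, with 10.83, 10.55 and 11.38. For HSPA4 208815_x_at the list was MED26 (0.09), RFC3, TFAM, LTV1 and RINT1 (0.10 to 0.11), with an SD of 0.64. For HSPA8 221891_x_at it was PSMA1, SLC30A6, RAN, XPO1 and DHX15 (all 0.08), with an SD of 0.22. These likenesses are over arrays of the same 4 groups and so include each gene's change with Kbr.

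The label of the cells was set against marker genes. Of 12 proximal tubule markers on the array 2 passed the filter, SLC3A1 and GATM, and both were lower in Kbr cultures at both times, while LRP2, CUBN, AQP1 and SLC34A1 lay below it. The summed linear values of the 12 were 588 to 1350 in control and 285 to 330 in Kbr arrays. All 7 general epithelial markers were measured, with sums of 23600 to 31100 in control and 18200 to 22500 in Kbr arrays. Fibroblast markers passed in 3 of 7 cases and all 3 were lower at both times, from sums of 4970 to 7530 in control to 1160 to 3660 in Kbr arrays. Markers of other nephron segments passed in 2 of 7 cases (sums of 496 to 806 in control and 214 to 365 in Kbr arrays) and those of endothelium or leukocytes in 1 of 7 (51.6 to 54.0 and 52.5 to 59.0). Probe sets for 18S ribosomal RNA were higher in Kbr cultures by 0.49 at 24 h and 0.51 at 48 h, and those for 28S by 0.57 and 0.68. The part of these shifts in the family's values was not tested.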

How the data were processed

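The data are 12 Affymetrix arrays of HK-2 RNA, 3 in each of 4 groups. The authors deposited log2 values made with GCRMA, which corrects for background binding by probe sequence and summarises each probe set, per the submitters' processing notes; no version is given. The file held 54675 probe sets, no missing value and array medians of 2.89 to 2.96, and for arrays their number limits the precision.

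The 22273 probe sets with log2 values over 4 in 3 or more arrays entered a two-sided limma fit of the 4 group means (version 3.58.1, R 4.3.3). It had 8 residual degrees of freedom and a prior worth 2.81. P-values were adjusted over all tested probe sets of a comparison by the Benjamini-Hochberg procedure. The fit ran by probe set because 7 member probe sets carry several symbols. The 5 comparisons were Kbr against control at each time, their difference, and 48 h against 24 h in control and in Kbr cultures. They share arrays.

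The members and gene lists were chosen with earlier results of these data known. Named were all member probe sets, 3 genes a list at each time (called before uncalled, then by size of change), the 5 genes nearest in profile to 4 members, and the measured HSP70 relatives. Other genes are named where the text says so.

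Same-numbered arrays deviated from their group means together (r between 0.24 and 0.61 over 18 pairs, against -0.40 and -0.005 over 36 pairs with different numbers), and the labels number replicates alike in all groups. Centring on group means pushes the different-number values down where the same-number ones are positive, so the ranges are not separate evidence. From the same-number values the numbers were taken to pair the arrays. A fit blocked on that number was run, with 6 residual degrees of freedom. Calls and p-values in the text come from the fit without this pairing unless the block is named. Other alternatives were an adjusted p under 0.01, a 2-fold minimum, no filter or a log2 value over 6, 1 probe set a gene, quantile normalization, centring each array on its median, an offset of 32, a trended and robust prior, only the groups compared, and each array left out in turn. The fit was tested on simulated data. Promoters came from the RefSeq table (GRCh38.p14) and were searched and aligned in Python 3.11.15 with Biopython 1.88. Plots used matplotlib 3.10.9. List genes with no probe set of their own symbol were not analysed here.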

Additional observations from a re-analysis of the deposited data

Results flagged for a closer look

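The Kbr effect differed between 48 h and 24 h by limma's test of the difference in 4 member probe sets, against 4.27% of all tested probe sets (1.55% higher and 2.73% lower). It was larger at 48 h by 0.92 on the log2 scale in HSPA14 219212_at (adjusted p = 0.0206), by 0.80 in HSPA4 208815_x_at (adjusted p = 0.0203), by 0.81 in HSPA4 211015_s_at (adjusted p = 0.0358) and by 0.63 in HSPH1 206976_s_at (adjusted p = 0.0365). When each array was left out in turn, 0 to 9 members were called for this difference. HSPA4 208814_at lay above control in all Kbr arrays at 24 h and below in all at 48 h, a difference of -0.77 whose limma adjusted p was 0.0583 (0.0380 with the replicate block). Outside the family the effect was lower at 48 h in HSPA12A, from 0.13 to -0.92 (difference -1.06, limma adjusted p = 0.0124), and in SGK1, from -0.34 to -1.85 (difference -1.51, adjusted p = 0.0105). The rule for a single far value in a group was not applied, since it starts at 4 samples a group.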

How the results depend on the processing

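Of the 23 alternatives, the adjusted p under 0.01 and the 2-fold minimum were read only as counts of calls. Under the others, 1384 of 1493 member values kept their direction and side of the threshold, 71 lost a call, 33 gained one and 5 changed sign. Those 5 were uncalled differences between times: HSPA2 (-0.39 to 0.11 when each array was left out) at 0.0015 without Kbr 24 h replicate 1, 0.11 and 0.06 without Kbr 48 h replicates 1 and 2 and 0.07 without control 48 h replicate 3, and HSPH1 235573_at (-0.028 to 0.80) at its lowest without control 48 h replicate 1. Counts of called probe sets moved as follows, by construction of the alternative where it tests fewer probe sets or arrays or asks for more; otherwise the cause was not tested. At an adjusted p under 0.01 there were 2722 calls at 24 h, 35 for the difference (0 members), 18 between control times and 812 between Kbr times. At an unadjusted limma p under 0.05 the difference gave 7 members, beside 4947 of all tested probe sets. With a 2-fold minimum there were 1432 at 24 h (7 members), 5004 at 48 h (11 members), 537 for the difference (0 members, again 7 unadjusted), 128 and 688. No filter gave 433 for the difference, 217 and 1664. With 1 probe set a gene there were 3429 at 24 h (6 members), 6306 at 48 h (6 members), 590 for the difference and 1813 between Kbr times. That setting takes single-symbol probe sets only, so it holds none of HSPA1A, HSPA1B or HSPA8 and 1 for each other member. The offset gave 663 between control times. Only the groups compared gave 0 between control times in limma (3694 at an unadjusted p under 0.05) and 1401 between Kbr times. The replicate block gave 9262 at 24 h, 3599 for the difference (8 members), 3578 between control times and 6268 between Kbr times; beyond the values in the report it changed no call of a member. Leaving out each array in turn gave 15 (without control 24 h replicate 1) to 23 members called at 24 h, 18 to 23 at 48 h and 0 to 9 for the difference, and over all probe sets 3505 to 6426, 10526 to 12021, 224 to 2442, 17 to 875 (control times) and 1116 to 4868 (Kbr times). The lowest of these came without control 24 h replicate 1 (24 h), control 24 h replicate 3 (the difference and control times) and Kbr 48 h replicate 2 (48 h and Kbr times), and the highest without Kbr 48 h replicate 3 (24 h, the difference and Kbr times) and control 48 h replicate 3 (control times). The scalings tried moved the median change of all tested probe sets to no more than 0.07. Signal over background limits the dim probe sets, such as HSPA4 208814_at, and 3 arrays a group limit all others.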
